A study of Eptatretus atami with 13 samples.

Results

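The intestine of the brown hagfish *Eptatretus atami* was compared with 12 other organs to find the gene models that are abundant in intestine and scarce everywhere else. A gene model was called intestine-high when it had at least 5 FPKM in intestine and at least 5 times the highest FPKM of the other 12 organs. FPKM is the number of counts scaled to the exon length and to the total of assigned counts, so it allows genes of different length to be compared. By this rule 118 of 37562 gene models were intestine-high, which is 0.314% of all models and 1.30% of the 9070 models with at least 5 FPKM in intestine. The rule itself uses the levels in these libraries, so the height of the members in intestine is a description and was not tested. The most abundant intestine genes, whether or not they met the rule, are described beside them.

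Besides intestine, RNA came from the digestive and excretory organs liver, gall bladder and kidney, from brain, heart and tongue muscle, from skin, slime gland and gills, and from ovary, blood cells and adipose tissue, with 1 library for each organ and no replicate. All 13 are labelled as wild type (WT) with the same entry for treatment, normal embryonic development, and no source read here gives the age or number of the animals. An organ is a mixture of cell types, and fewer cells of a type and less RNA per cell cannot be told apart in such a library. No p-value is given, and the 95% intervals below are exact and cover counting error alone, not variation between animals. Assigned counts ranged from 18800367 in gills to 39077785 in tongue muscle, with 29215712 in intestine. The library labelled adipose tissue was closest to brain of all organs (Pearson r = 0.978 across 19238 gene models on log2(FPKM + 1)) and is named here by its label. Leaving it out gave 119 intestine-high genes.

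The vertebrate intestine digests food at the brush border, the dense field of microvilli on its absorptive cells, where enzymes such as lactase and dipeptidyl peptidase sit in the membrane. Hagfish have no stomach, and their gut is a straight tube in which absorptive cells stand beside cells filled with zymogen granules, the stored form of digestive enzymes. Absorptive cells, mucus-secreting cells, smooth muscle, nerves, connective tissue and blood can all add RNA to a whole-organ sample.

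A few genes took a large part of the intestine RNA. The 118 intestine-high genes held 25.2% of all intestine counts (95% interval 25.16 to 25.20%). The same genes held from 0.0103% of the counts in slime gland to 0.336% in gall bladder. The 6 most abundant of them held 14.6% of the intestine counts and the 10 most abundant 19.5%. Among the 20 gene models with the highest FPKM in intestine, 13 met the rule. Intestine levels of the 118 genes ran from 5.64 to 83041 FPKM, with a median of 106 FPKM and quartiles of 26.5 and 512 FPKM. In total 24 of them reached 1000 FPKM and 20 lay below 20 FPKM. The ratio to the highest other organ had a median of 17.7, with 38 genes between 5 and 10, 22 at 100 or more and 6 at 1000 or more. Ratios to tongue muscle and liver rest on how the libraries are scaled. With TMM factors, which rescale each library by a trimmed mean of its gene ratios, and with DESeq2 size factors they fell several-fold. Then 1 member reached a ratio of 1000 in place of 6. Over all 118 members, however, the median ratio rose to 21.8 with either. A ratio of 100 was reached by 27 members with TMM and 26 with DESeq2 factors.

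**Figure D1:**
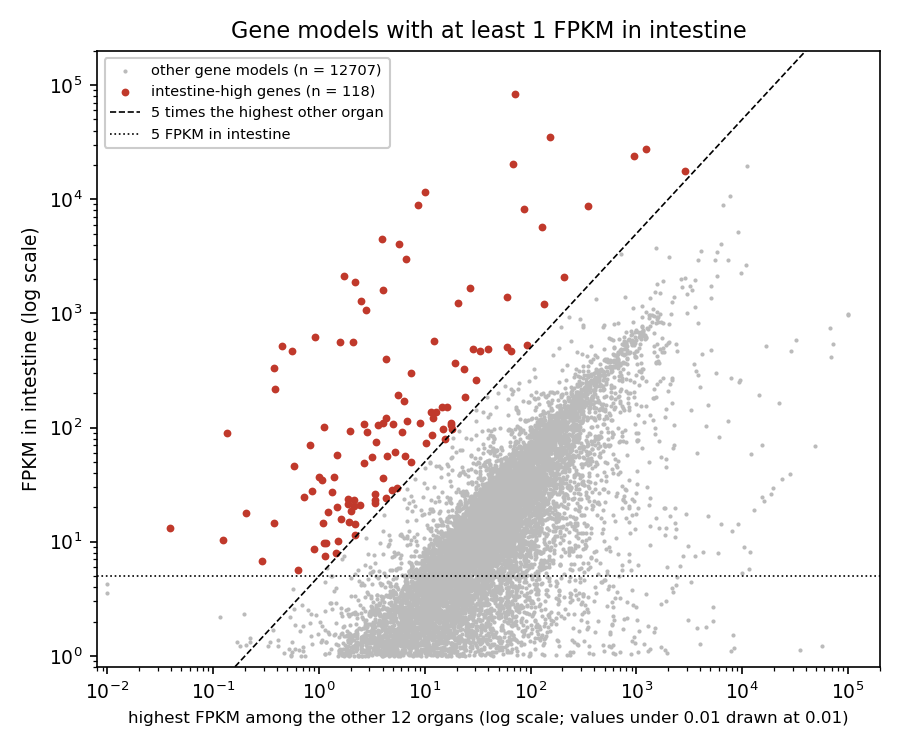
FPKM in intestine against the highest FPKM among the other 12 organs, both on log scales, for the 12825 models that reached 1 FPKM in intestine. Each point is 1 gene model, red points are the 118 intestine-high genes, and the lines mark the limits of 5 FPKM and of 5 times the highest other organ. The red points reach from 5.64 to 83041 FPKM in intestine, while most grey points are lower in intestine than in the highest other organ. Of 19238 models with at least 1 FPKM in an organ, 587 were highest in intestine, or 904 with TMM and 841 with DESeq2 factors.

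The most abundant transcript of the intestine library, EA80666, was low in the other organs, with 1 FPKM or more in 10 of 12. It had 83041 FPKM in intestine, from 1761357 counts, and a lowest, median and highest level of 0.436, 1.51 and 71.6 FPKM in the other 12 organs. The highest of these was tongue muscle, a ratio of 1160 (95% interval 1091 to 1235), or 379 with TMM factors. EA80666 has 11 exons with 726 bp in all and lies at chr17:32406508-32439647 on the minus strand. The second most abundant, EA81844, had 35288 FPKM in intestine and between 0.261 and 152 FPKM elsewhere, the highest level being in liver. It lies nearby at chr17:32308660-32324633, also with 11 exons but on the plus strand. The files pair neither with a gene name. Of all intestine counts, these neighbours held 9.23%, while none of the 5 other gene models overlapping the same 131 kb was above 8.16 FPKM in intestine.

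The genes that came next in abundance differed in how far other organs shared them. EA08081 had 27583 FPKM in intestine and 1239 FPKM in liver, a ratio of 22.3. EA07169, on the same chromosome 16, behaved alike, with 8769 FPKM in intestine, 346 FPKM in liver and 5.83 FPKM in kidney, a ratio of 25.3. With TMM and DESeq2 factors the ratios were 6.51 and 6.13 for EA08081 and 7.40 and 6.97 for EA07169. Both were low elsewhere, with medians over the other 12 organs of 1.32 FPKM for EA08081 and 0.174 FPKM for EA07169. EA54861 had 24139 FPKM in intestine and 951 FPKM in gall bladder, and EA81621 had 20289 FPKM against 67.6 FPKM in gall bladder. EA70825 had 17710.1 FPKM in intestine, 2856 FPKM in gall bladder and 446 FPKM in liver. Its ratio of 6.20 was the lowest of the 10 most abundant members at the assigned totals. With TMM and DESeq2 factors it was 8.71 and 8.73, above the ratios of EA08081 and EA07169. By contrast EA55266 had 11561 FPKM in intestine and at most 10.01 FPKM elsewhere, and EA53705 had 8868 FPKM against at most 8.54 FPKM. So at the assigned totals liver was next for the first pair and gall bladder for the next 3, where EA81621 had a ratio of 300. The last pair had ratios of 1155 and 1038. With TMM factors EA81621 was at 378, like the last pair at 378 and 413.

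Lower in the list of the 20 most abundant members, levels in other organs were small in most cases. EA00512 had 4461 FPKM in intestine and at most 3.98 FPKM in another organ. EA05083 had 4031 FPKM and at most 5.65 FPKM, and EA74082 had 3015 FPKM and at most 6.71 FPKM. EA44574 had 2107 FPKM in intestine and 1.73 FPKM in tongue muscle. Its ratio of 1216 was the highest of all members at the assigned totals, but with TMM factors it was 398. That of EA58671 was then highest, at 1114. It rests on 11 counts in kidney, with a 95% interval of 378 to 2456 at the assigned totals. EA18087 reached 1899 FPKM with no counts in 5 organs and at most 2.19 FPKM in the library labelled adipose tissue. EA54976 reached 1609 FPKM and at most 4.03 FPKM in ovary. A second kind of gene was present everywhere at a low level. EA11155 had 2100.3 FPKM in intestine, 207 FPKM in kidney and at least 1.59 FPKM in every organ. EA24836 had 1385 FPKM in intestine, 60.1 FPKM in blood cells and at least 0.985 FPKM in every organ.

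**Figure D2:**
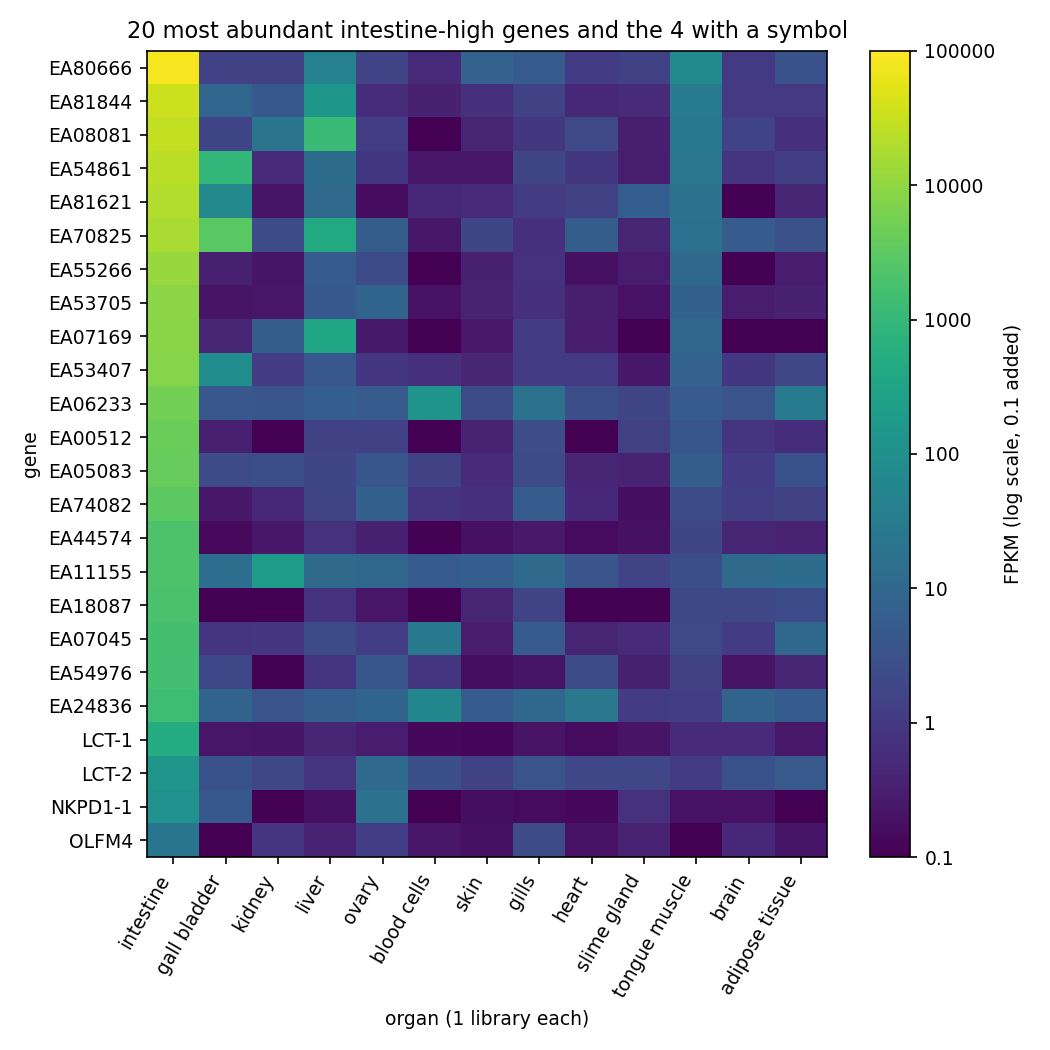
FPKM by organ, on a log colour scale with 0.1 added, for the 20 most abundant intestine-high genes and the 4 with a gene symbol. Rows are genes and columns are organs with 1 library each. The intestine column is highest in each row by the rule, liver is bright for EA08081 (1239 FPKM), gall bladder for EA70825 (2856 FPKM) and blood cells for EA06233 (128 FPKM).

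Among the 20 gene models with the highest FPKM in intestine, 7 did not meet the rule, and their highest other organ was kidney, liver, skin or gall bladder. Of these EA84808, EA60146, EA15365 and EA85437 were abundant in every organ, at no less than 1120.3, 932, 362 and 234 FPKM. EA84808 had 19616 FPKM in intestine and 10998 FPKM in kidney, a ratio of 1.78. EA27319 had 10582 FPKM in intestine, 7716 FPKM in liver and a median of 2.20 FPKM over the other 12 organs, so it was abundant in these organs and scarce in most. EA02881 had 8871 FPKM in intestine and 6614 FPKM in skin. EA85437 had 3710 FPKM in intestine against 1544 FPKM in kidney. The remaining 3 were higher in another organ than in intestine. EA60146 had 5207 FPKM in intestine and 9101 FPKM in kidney, EA15365 had 4053 against 6247 FPKM in gall bladder, and EA27026 had 3519.9 against 4110.2 FPKM in kidney. The order of intestine and the highest other organ turned under other scalings of the libraries for EA02881, EA27319 and EA27026.

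The intestine-high genes were often neighbours. In total 46 of the 118 (39.0%) lay within 100 kb of another one, in 18 runs of 2 to 5 genes, and these 46 held 18.4% of all intestine counts. Counting each run once leaves 90 loci. The same share by the same rule was 40.2% of 97 genes in kidney, 4 of 25 genes in gall bladder and 62.7% of 126 genes in slime gland, so close neighbours were not particular to intestine. In 12 of the 18 runs all members were on the same strand, and in 9 runs all had the same next highest organ at the assigned totals.

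The largest run lay at chr14:11666100-11770827 and held 5 intestine-high genes and no other gene model. These genes held 6.74% of the intestine counts. From left to right they were EA54861 with 24139 FPKM, EA55337 with 23.1 FPKM, EA53407 with 8256 FPKM, EA55266 with 11561 FPKM and EA53705 with 8868 FPKM. In exon structure 4 of them fall into pairs of like size. EA54861 and EA55266 each have 7 exons, with 930 and 954 bp, and EA53407 and EA53705 have 13 and 14 exons, with 1890 and 2070 bp. Their next highest organs differed. In gall bladder EA54861 had 951 FPKM, 25.4 times below intestine, and EA53407 had 87.5 FPKM, 94.4 times below. EA55266 and EA53705 had 0.238 and 0.110 FPKM in gall bladder. EA55337, a model of 234 bp, lies 35 bp from EA54861 on the same strand, and whether they are 1 gene was not tested.

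A run at chr16:7149523-7337551 held 3 genes on the minus strand, all with blood cells as the next highest organ. EA07045 had 1662 FPKM in intestine and 26.9 FPKM in blood cells, EA05479 had 1243 and 20.8 FPKM, and EA06233 had 5697 and 128 FPKM. The ratios were 61.9, 59.9 and 44.5. For each of the 3 the order of the next organs was blood cells, the library labelled adipose tissue and gills. EA06233, for example, had 28.65 FPKM in the library labelled adipose tissue and 18.1 FPKM in gills. At chr5:67412862-67439812 the neighbours EA26355 and EA24836 also had blood cells next, with 473 and 1385 FPKM in intestine and 33.3 and 60.1 FPKM in blood cells.

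At the assigned totals kidney was the next organ of all 3 genes in the run at chr4:100807557-100855958, although at very unlike levels. EA60320 had 259.7 FPKM in intestine and 30.7 FPKM in kidney, a ratio of 8.46. The adjacent EA58671 had 469 FPKM in intestine and 0.551 FPKM in kidney, with no counts in 9 of the other 12 organs. EA60055, 483 bp further on the same strand, had 558 FPKM in intestine and 1.56 FPKM in kidney, with no counts in 7. So EA58671 and EA60055 were near the limit of detection outside intestine, and their left neighbour was not.

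**Figure D3:**
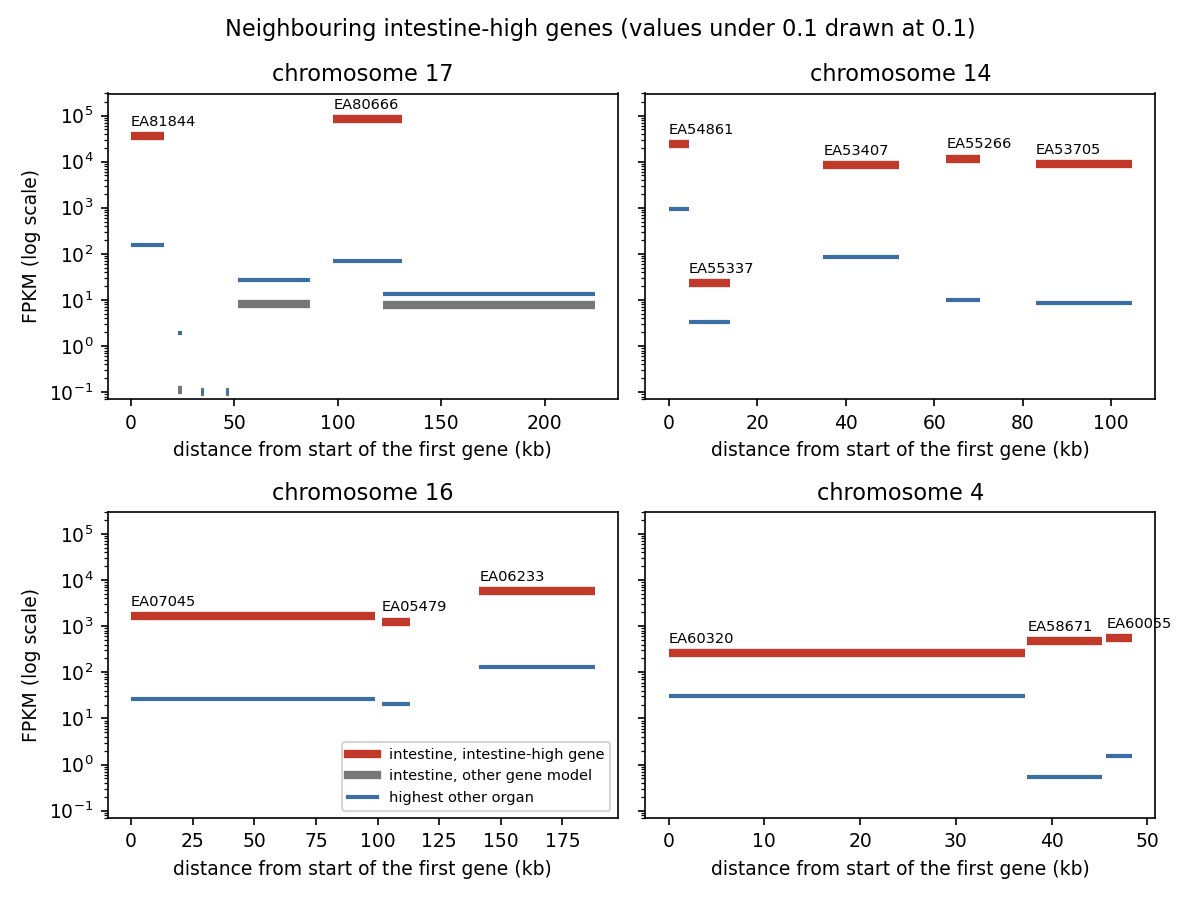
FPKM (log scale) against the distance in kb from the start of the first gene, for 4 runs of neighbouring intestine-high genes on chromosomes 17, 14, 16 and 4. Each bar spans a gene model, red for intestine-high genes in intestine, grey for other models in intestine and blue for the highest other organ. On chromosome 17 the 2 red bars stand at 35288 and 83041 FPKM, and on chromosome 14 all but EA55337 stand at 8256 FPKM or above.

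In a run on chromosome 6, EA05083 and EA00512 lie 170 bp apart on the plus strand, at chr6:124255593-124302865, with 4031 and 4461 FPKM. EA05083 has 231 bp of exon and EA00512 has 945 bp. A further run on this chromosome, at chr6:21580810-21783361, held EA02829 with 331 FPKM, EA03240 with 217 FPKM and EA01155 with 13.1 FPKM. All 3 were close to 0 in every other organ, the highest level being 0.379 FPKM in liver for EA02829, 0.386 FPKM in tongue muscle for EA03240 and 0.0393 FPKM in tongue muscle for EA01155. The third run there, at chr6:24616840-24763520, held EA01937, EA01431 and EA02012 at 108, 369.8 and 18.3 FPKM, all with gall bladder next at ratios of 21.4, 19.1 and 14.98. Chromosome 6 had 14 intestine-high genes and chromosome 14 had 13, which is 2.56% and 2.61% of their models with at least 5 FPKM in intestine, against 1.30% of all such models. Chromosomes 9 and 2 had the lowest shares, 0.398% and 0.496%. By counts, chromosome 17 held most, 10.6% of the intestine total with 4 genes, and chromosome 14 held 7.09%.

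The other runs were of lower abundance. EA54026, EA52688 and EA54168 on chromosome 14 had 469, 23.8 and 45.8 FPKM. EA53423 and EA52578 on the same chromosome had 299 and 93.5 FPKM. On chromosome 13 EA20314 had 324 FPKM and EA21297 had 101 FPKM. EA50762 and EA46992 on chromosome 9 had 74.4 and 192 FPKM, and EA71139 and EA70258 on chromosome 12 had 34.4 and 106 FPKM, both pairs with gall bladder next. On chromosome 7 EA32468, EA32482 and EA30806 had 90.6, 24.8 and 48.8 FPKM, and the 14 single-exon models between them had no counts in intestine. EA09956 and EA09267 on chromosome 10, 36 bp apart, had 85.7 and 73.8 FPKM and were next highest in slime gland at ratios of 7.29 and 7.14. On chromosome 8 EA68295 and EA67801 had 109 and 36.6 FPKM, and EA67084, EA65343 and EA68107 had 9.65, 18.7 and 26.2 FPKM. In 6 pairs, 2 members stood on the same strand with less than 1 kb between them or overlapped, so some may be parts of 1 gene. Counting took no account of strand, and 7 of the 118 members share exon sequence with another model, EA54026 with EA52688, EA03240 with EA01155 and EA68295 with EA67801 among the members, so their counts are uncertain.

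In 26 of the 118 genes gall bladder was the next highest organ, in 22 ovary, in 21 blood cells, in 9 kidney, in 8 each brain and tongue muscle, and in 7 each liver and the library labelled adipose tissue. Gills and skin were next in 3 each and heart and slime gland in 2 each. The counts depended on the scaling. With TMM factors gall bladder and blood cells were next for 21 genes each, tongue muscle for 20, liver for 15 and ovary for 10. Among genes with gall bladder next the ratio ran from 5.44 to 679, with a median of 23.4. Among those with ovary next it ran from 5.59 to 1038, and the ovary level was never above 28.7 FPKM. With blood cells next the ratio stayed between 5.62 and 93.8, and the intestine level had a median of 324 FPKM. In 17 members every other organ was below 1 FPKM, in 6 every other organ was at 1 FPKM or above, and in 38 every library had at least 1 count. The median member reached 1 FPKM in 2 of the other 12 organs.

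Among the 17 members below 1 FPKM in every other organ were *LCT-1* and 3 genes near its level. EA12864 had 623 FPKM in intestine and at most 0.918 FPKM elsewhere, EA58671 had 469 FPKM and at most 0.551 FPKM, and EA02829 had 331 FPKM and at most 0.379 FPKM. EA00237 had 89.1 FPKM in intestine and at most 0.134 FPKM, from 6 counts in ovary. At the low end EA01141 had 6.82 FPKM and at most 0.289 FPKM, and EA12248 had 5.64 FPKM and at most 0.640 FPKM. The 6 members found in all organs included EA63997, with 1202 FPKM in intestine, 133 FPKM in blood cells and at least 11.3 FPKM in every organ, and EA54026, with 469 FPKM in intestine, 65.0 FPKM in blood cells and at least 1.15 FPKM.

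In tongue muscle the counts of abundant members followed their counts in intestine. Over the 14 members with at least 100000 intestine counts, the tongue muscle count was between 0.106 and 0.171% of the intestine count, with a median of 0.117%. EA80666 had 2031 counts in tongue muscle and 1761357 in intestine, which is 0.115%, and EA55266 had 373 and 322226, which is 0.116%. Over all 14, liver did not show so even a share, although EA80666, EA54861, EA81621, EA55266, EA53705 and EA53407 lay between 0.0531 and 0.0638%. The liver share ran from 0.0357 to 5.24%, with a median of 0.0631% and quartiles of 0.0588 and 0.609%. Besides EA08081, EA07169 and EA70825 at 5.24, 4.61 and 2.94%, EA11155 had 0.645% and EA81844 had 0.504%. The lowest were EA44574 and EA00512, at 0.0357 and 0.0365%. In slime gland the share was between 0 and 0.0748%, and in gall bladder it ran from 0.00112 to 14.6%. All 8 members whose next organ was tongue muscle had ratios of 333 or more, and *LCT-1*, at 1145, was among them. The cause of the near-constant share in tongue muscle was not tested, nor that of the liver values. The 118 members were the same without tongue muscle, and without liver 128 genes met the rule, all 118 among them.

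**Figure D4:**
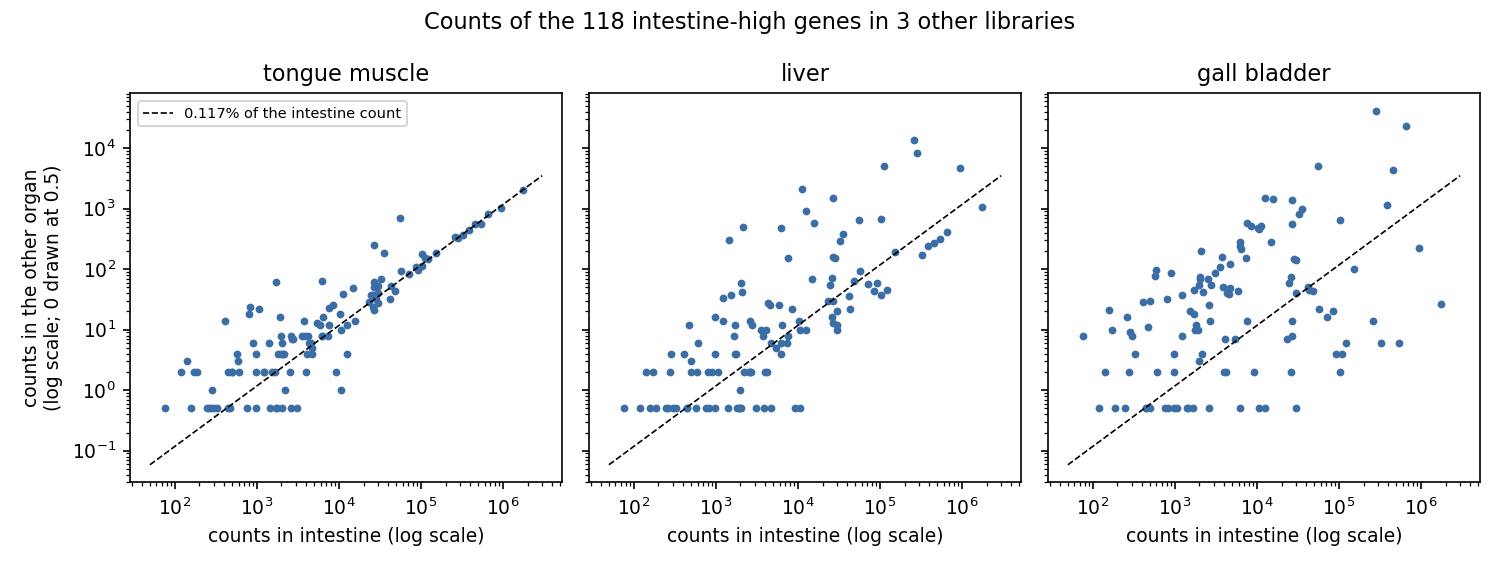
Counts of the 118 intestine-high genes in tongue muscle, liver and gall bladder (left to right) against their counts in intestine, both on log scales, with 1 point per gene and counts of 0 drawn at 0.5. The dashed line marks 0.117% of the intestine count. Abundant genes lie along the line in tongue muscle and scatter on both sides of it in liver and gall bladder.

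Gene names were at hand for a small part of the genome. The rows read from a source table of the study pair 1998 gene models of chromosome 1 with a name or an uncharacterized label, and 4 of the 118 members were among them, all 4 with a symbol. This is 0.417% of the 959 measured models with a symbol, to be set beside 118 of all 19238 measured models. *LCT-1* and *LCT-2*, named for lactase, the brush border enzyme that splits milk sugar in mammals, are neighbours on the plus strand. *LCT-1* (EA23013) has 13 exons and lies at 27043436 to 27200436 of its scaffold on chromosome 1, and *LCT-2* (EA23356) has 25 exons and lies at 27281022 to 27462052. *LCT-1* carries a glycoside hydrolase family 1 domain. The *LCT-2* model carries this domain and a zinc finger domain, and whether it spans more than 1 gene was not tested. *LCT-1* had 516 FPKM in intestine, and a lowest, median and highest level of 0.0220, 0.123 and 0.450 FPKM in the other organs. *LCT-2* had 138 FPKM in intestine and a lowest, median and highest level of 0.714, 2.27 and 11.4 FPKM elsewhere, the highest in ovary. *LCT-1* had a ratio of 1145 (95% interval 845 to 1592) and *LCT-2* of 12.1 (11.3 to 12.9). With TMM and DESeq2 factors these were 374 and 325 for *LCT-1* and 22.4 and 22.3 for *LCT-2*.

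The other 2 members with a symbol are of other kinds. *NKPD1-1* carries a KAP family NTPase domain and had 106 FPKM in intestine, 17.7 FPKM in ovary, 4.43 FPKM in gall bladder and below 1 FPKM in the remaining organs. *OLFM4*, named for olfactomedin 4, a secreted glycoprotein that marks stem cells of the intestinal crypt in human, had 21.1 FPKM in intestine. Its next organ was gills at 2.43 FPKM, a ratio of 8.71 (6.20 to 12.6), followed by ovary at 1.16 FPKM.

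At the limits of the rule the values ran on without a gap. Just above the fold of 5 were EA00451 at 5.06, EA43836 at 5.17 and EA16597 at 5.38. Just below were EA61223 at 4.96, *DPT-1* at 4.82 and EA74366 at 4.60. With TMM factors EA61223 and *DPT-1* rose to 9.21 and 5.89, while EA74366 and EA00451 fell to 3.98 and 1.48. *DPT-1*, named for dermatopontin, a matrix protein of connective tissue, had 185.5 FPKM in intestine, 38.5 FPKM in blood cells and a median of 1.32 FPKM elsewhere. At the level of 5 FPKM, EA12248, EA01141 and EA75929 were just inside at 5.64, 6.82 and 7.57 FPKM, and EA45585, EA30994 and EA47890 were just outside at 4.24, 3.85 and 3.58 FPKM. EA45585 and EA47890 had no counts in the other 12 organs, and 123 gene models passed the fold but not the level.

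The gene lists, marker lists and protein domains below draw only on the source table of chromosome 1 models. They do not cover all genes of a kind, and members without a symbol could enter no list. Of the 9 gene lists, that named digestive and brush border hydrolases had the highest median. Its members highest in intestine were *LCT-1* and *LCT-2*, 2 neighbouring models named for a nucleoside breakdown enzyme, and a cytosolic aminopeptidase. The brush border peptidase *DPP4* was higher in kidney. Of the 15 listed genes 5 had their highest level in intestine, against 3.05% of all 19238 measured models and 2.29% of the 959 with a symbol, and 11 were above the median of the other 12 organs, against 35.1% of those with a symbol. Since *LCT-1* and *LCT-2* are intestine-high by the rule, and the list was chosen with earlier results known, nothing is read from this contrast. The list median of the log2 ratio of intestine to the median of the other organs, with 1 FPKM added, was 2.21, and that of all 19238 measured models was -0.10. Besides *LCT-1* and *LCT-2*, *TYMP-2* and *TYMP-1* are named for thymidine phosphorylase, an enzyme of nucleoside breakdown. They had 65.2 and 45.8 FPKM in intestine and 32.1 and 12.8 FPKM in kidney, with medians over the others of 0.126 and 0 FPKM. On the minus strand *TYMP-2* ends at 31305530 and *TYMP-1* starts at 31305724, and whether they are 1 gene was not tested. *DPP4*, a dipeptidyl peptidase of the brush border in mammals, had 48.0 FPKM in intestine and 97.5 FPKM in kidney. *NPEPPS-5*, named for a cytosolic aminopeptidase, had 90.6 FPKM and 140.2 FPKM in ovary. *DNPEP*, named for aspartyl aminopeptidase, had 51.3 FPKM in intestine and 46.8 FPKM in ovary, an order that turned with TMM and DESeq2 factors (ratios of 0.852 and 0.740).

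In the list named apical cytoskeleton and scaffold 4 of 10 measured members were highest in intestine, against 2.29% of the 959 measured models with a symbol. None was intestine-high, the list median was 1.21, and nothing is read from this contrast. Of those 4, *CALM3-3* and *PLSCR1-1* are not cytoskeletal proteins. *CALM3-3*, named for the calcium sensor calmodulin, had 1909 FPKM in intestine, 1779.9 FPKM in brain and a median of 47.3 FPKM elsewhere. *PLSCR1-1*, named for phospholipid scramblase, had 96.8 FPKM in intestine and 62.1 FPKM in kidney. *SPTBN5-2*, named for the beta-V spectrin of apical membranes, had 36.1 FPKM in intestine, 32.1 FPKM in gall bladder and a median of 0.920 FPKM elsewhere. *SPTBN5-1* had only 1.69 FPKM in intestine and 1.13 FPKM in gall bladder. On the minus strand *SPTBN5-2* ends at 16429540 and *SPTBN5-1* starts at 16430538, and whether they are 1 gene was not tested. *PDZK1-2*, named for a scaffold of apical transporters, had 11.9 FPKM in intestine and 189 FPKM in kidney. *ACTN4-1*, named for an actin crosslinker, had 19.9 FPKM and 44.1 FPKM in ovary. Of the keratins *KRT8-3* and *KRT8-4* had 0 counts in intestine and *KRT8-6* had 0.221 FPKM, and *MPDZ-1*, named for a multiple PDZ domain scaffold, had 2.65 FPKM.

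**Figure D5:**
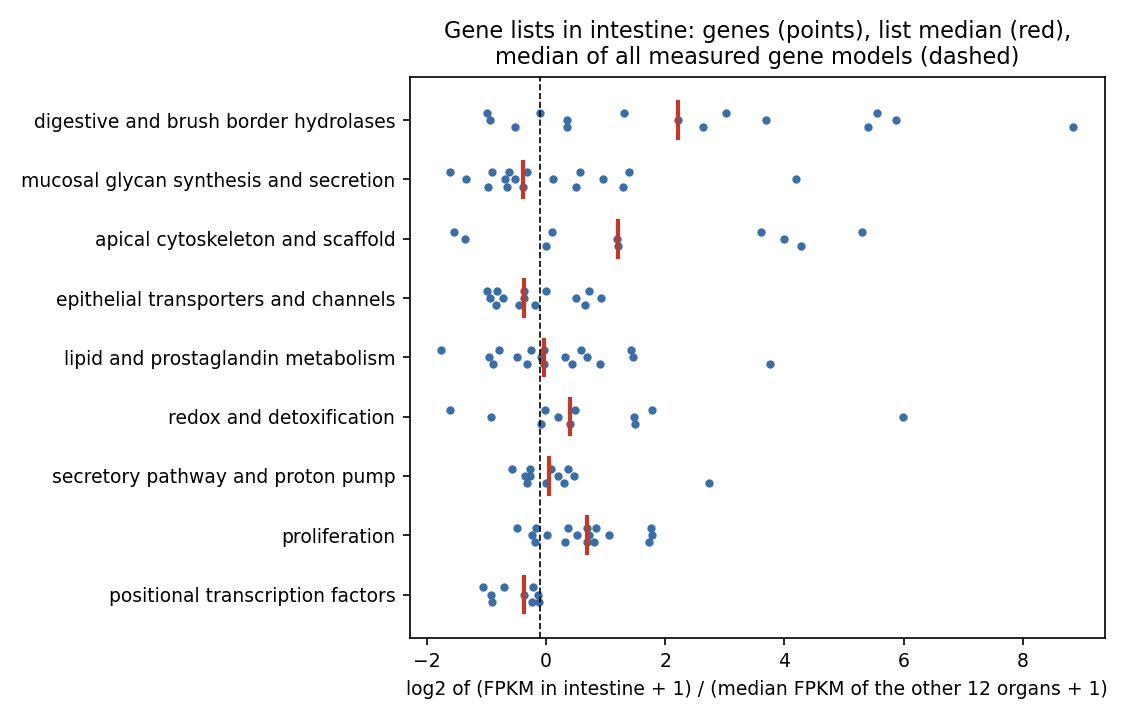
Log2 ratio of FPKM in intestine to the median of the other 12 organs, with 1 FPKM added, for the measured genes of 9 lists. Points are genes, red bars are list medians and the dashed line is the median of all measured gene models, -0.10. The medians of the lists named hydrolases (2.21) and apical cytoskeleton and scaffold (1.21) lie farthest to the right.

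In lipid and prostaglandin metabolism 2 of 18 measured genes were highest in intestine and the list median was -0.04. *HPGD-1*, named for the enzyme that inactivates prostaglandins, had 605 FPKM in intestine and 554 FPKM in gall bladder, against a median of 43.6 FPKM. *HACD2*, an enzyme of fatty acid elongation, had 121 FPKM in intestine and 112 FPKM in kidney. Both orders turned with TMM and DESeq2 factors, to ratios of 0.751 and 0.707 for *HPGD-1* and of 0.368 and 0.320 for *HACD2*. *ACADVL* and *ECHS1*, enzymes of fatty acid oxidation, had 82.6 and 68.9 FPKM, with 97.3 FPKM in ovary and 153 FPKM in heart at the top. In redox and detoxification 2 of 11 were highest in intestine and the median was 0.41. *GSTT2B*, named for a glutathione transferase, had 3476 FPKM in intestine, second to 5821 FPKM in skin, with a median of 53.5 FPKM elsewhere. *GPX2*, the glutathione peroxidase of the gut epithelium in mammals, had 799.8 FPKM, second to 2019.5 FPKM in kidney. *MPST*, named for a sulfurtransferase, had 113 FPKM in intestine and 91.0 FPKM in gall bladder, with ratios of 0.984 and 0.927 by TMM and DESeq2 factors. *TXN-2*, named for thioredoxin, had 110.3 FPKM and 186 FPKM in blood cells.

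Of the 12 measured genes for the secretory pathway and the proton pump 1 was highest in intestine, and the median was 0.04. This was *ATP6V1A*, the catalytic subunit of the proton pump of acidic organelles, with 261 FPKM in intestine and 215 FPKM in the library labelled adipose tissue. *TMED10-2*, *NUCB2* and *ARCN1*, which act in traffic between endoplasmic reticulum and Golgi or in calcium binding there, had 96.4, 88.2 and 87.8 FPKM, all lower than in at least 1 other organ. In mucosal glycan synthesis and secretion 1 of 17, *OLFM4*, was highest in intestine and the median was -0.39. The others with high levels were *C1GALT1-2* at 43.9 FPKM, *GALNT2* at 29.3 FPKM and *MGAT5-2* at 20.1 FPKM, enzymes that build O-linked or N-linked glycans. *TSPAN1*, a tetraspanin of mucosal epithelia in mammals, had 0 counts in intestine and 422 FPKM in gills.

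None of the 14 measured transporters and channels of the list was highest in intestine, and the median was -0.37. *SLC39A9*, *SLC38A2-2*, *SFXN2* and *SLC38A9-1*, named for carriers of zinc, neutral amino acids and mitochondrial serine and for a lysosomal amino acid sensor, had 35.4, 32.1, 27.8 and 22.8 FPKM, and *SLC38A9-1* had 950.2 FPKM in kidney. In proliferation 13 of 17 genes lay above the median of the other organs, against 35.1% of measured models with a symbol, with a list median of 0.69, and 0 were highest in intestine. *CDC25B-1*, *SMC4-2*, *CDK1-2* and *NUF2*, which drive mitosis or condense and attach chromosomes, had 54.3, 44.8, 38.0 and 16.1 FPKM, and they were highest in ovary, except *SMC4-2*, which was highest in blood cells at 52.7 FPKM. Of the 9 measured positional transcription factors, mostly HOX genes, 0 reached 5 FPKM in intestine. The highest were *HOXD4* at 1.39 FPKM, *HOXB5-2* at 1.30 FPKM, *SATB1* at 1.13 FPKM and *HOXA2-2* at 0.868 FPKM.

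By protein domain, 2 of the 4 measured glycoside hydrolases of the table were highest in intestine, namely *LCT-1* and *LCT-2*, and 2 of the 4 with spectrin repeats, *SPTBN5-1* and *SPTBN5-2*. These spectrin models are neighbours that may be 1 gene, and gall bladder came close, at 1.13 and 32.1 FPKM against 1.69 and 36.1 FPKM in intestine. Of 17 peptidases, 9 oxidation and conjugation enzymes and 13 proteins with lectin or mucosal defence domains, 1 each was highest in intestine. The first 2 were *DNPEP* and *HPGD-1*, and with TMM and DESeq2 factors neither was highest in intestine. None of 17 membrane transporters and none of 2 lipases and esterases was. Over all 928 measured models with a domain the number was 22.

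For each list of markers of other cell types, at least 1 other organ had a higher summed level than intestine. The 11 striated muscle markers summed to 41.7 FPKM in intestine, with a range of 1.06 to 28662 FPKM in the other organs, and 39.07 FPKM of it was *MYL2-1*, which had 28576 FPKM in tongue muscle. *LMOD1* was the higher of the 2 smooth muscle genes, at 6.27 FPKM against 72.2 FPKM in gall bladder, and the sum was 11.1 FPKM (others 0.768 to 87.8). The 5 liver markers summed to 25.2 FPKM (others 4.63 to 7998), with *SERPINF1-3*, the most abundant in liver at 7621 FPKM, at 0.868 FPKM. The 3 kidney tubule markers summed to 30.8 FPKM (others 2.08 to 247), and *MIOX* had 0 counts. The 9 blood and immune markers summed to 76.9 FPKM (others 22.7 to 365), led by *LYL1-1* at 35.6 FPKM and *WIPF1* at 19.4 FPKM, with *PIK3CG-2* at 0. The 11 measured neuronal and neuroendocrine markers summed to 184 FPKM (others 48.4 to 1229, the highest in the library labelled adipose tissue). Most of the intestine sum was *RAB3A-2* at 109 FPKM and *SYNPR-2* at 55.2 FPKM. At the assigned totals these were highest in gills (124 FPKM) and kidney (129 FPKM), so the sum is not read as a level of neurons. *NEFM* had 0.366 FPKM, against 931 FPKM in the library labelled adipose tissue. The 13 connective tissue markers summed to 474 FPKM (others 91.7 to 1502), with *DPT-1* at 185.5, *NID2* at 111 and *FSTL1* at 68.3 FPKM and 3 fibronectin models at 0 counts, and the 9 measured ciliated cell markers summed to 2.99 FPKM. None of these markers is intestine-high at the assigned totals, but with TMM and DESeq2 factors *DPT-1* had ratios of 5.89 and 5.91. The blood markers bear on the 21 members whose next organ was blood cells, and the part of blood in their intestine level was not tested.

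As a whole library, intestine was most like gall bladder. Across 19238 gene models with at least 1 FPKM in an organ, Pearson's r of log2(FPKM + 1) was 0.874 with gall bladder, 0.842 with kidney, 0.813 with blood cells and 0.795 with skin. It was lowest with brain, 0.678, and with the library labelled adipose tissue, 0.662. Gene models are not independent replicates, and these values describe the libraries. For blood cells the closest organ was intestine, and for gall bladder and kidney each was the closest to the other. By the same rule 97 genes were high in kidney, with 7.83% of its counts, and 25 in gall bladder, with 0.432% of its counts, against 118 genes and 25.2% in intestine. The share was 71.3% in liver with 103 genes, 49.8% in tongue muscle with 46, 34.8% in skin with 69 and 22.5% in blood cells with 93, so a large share was not particular to intestine. Genes at like levels in 2 organs fail this rule in both. Gall bladder was close to intestine and also to kidney (r = 0.878), so nothing is read from its low number of genes. Without gall bladder among the organs compared 151 genes were intestine-high, and without kidney 142.

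The intestine-high genes had somewhat fewer exons than other genes expressed in intestine. Their median exon length in all was 1291.5 bp and their median number of exons 7.5, against 1562 bp and 10 exons for the 9070 models with at least 5 FPKM in intestine. Of the 118, 6 (5.08%) had a single exon and 20 (16.9%) had less than 500 bp of exon, against 2.60% and 11.2% of those models. Over all 37562 models the median was 702 bp and 3 exons, and 41.2% had a single exon. Short models have fewer counts for the same FPKM, and the smallest count of a member was 77, for EA67084.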

How the data were processed

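Total RNA of 13 organs, 1 library each, was extracted with Trizol and made into strand-specific TruSeq libraries, read as pairs. Alignment by the authors used STAR (2.5.2b), and reads on exons were counted with featureCounts (1.6.1 by the file header and labels, a later version by the methods). They deposited un-normalized counts of 37562 gene models. Neither pairs nor strand were set, so a count is a read end (83.6% of counts from 1 to 4 were even), overlapping genes can share reads, and reads matching several places were left out, which makes near-identical copies uncertain. Exon lengths and coordinates are those of the deposited count table, on the scaffolds of the authors' assembly. Scaffolds were assigned to 17 chromosomes from positions in the study's source data, placing 35332 models and 116 members.

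FPKM was computed from the counts, the exon length and the assigned total. Assigned totals ran from 18800367 to 39077785, and ratios of abundant genes are therefore precise as to counting, while variation between animals is unknown. Intervals are exact Clopper-Pearson (95%) on pairs of counts. The floor for a ratio was 3 counts. Models were called measured at 1 FPKM in an organ. Names and domains came from a source table of the study for 1998 models of chromosome 1, 1045 of them with a symbol. In 31 of its rows the position belongs to another gene, and domains were not used there. The levels that table gives were not used.

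Members, lists and the genes named were chosen with earlier results of these data known. Named are the 20 members and the 20 gene models with the highest intestine FPKM, members with a symbol or domain, the 4 highest genes of each list, the 3 genes on each side of each limit and members within 100 kb of each other. Genes outside these rules were named after their values were seen. They include EA12864, EA00237, EA63997, *SPTBN5-1*, *TYMP-1*, *DNPEP*, *DPP4*, *KRT8-6*, *MPDZ-1*, *NEFM* and list genes at 0. They also include EA57729, EA78998, EA13427 and EA52455, which were lost with TMM factors. Alternatives were TMM (edgeR 4.0.16) and DESeq2 (1.42.0) factors, totals without the 10 highest genes, other limits, pseudocounts and organs. Those without tongue muscle, without liver and with runs counted once were added after seeing the data. The rule was run on simulated counts with planted folds and counting error alone. That run holds no variation between animals, so it bears on the calculation and not on the genes called. Python 3.11.15 (with scipy 1.17.1, pandas 2.3.3 and numpy 2.4.6) and R 4.3.3 were used.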

Additional observations from a re-analysis of the deposited data

How the results depend on the processing

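The number of intestine-high genes stayed between 80 and 171 under all 17 alternatives, within 1.5 times of 118. It was 129 with TMM factors, 126 with DESeq2 size factors and 123 with totals without the 10 highest genes, with 111, 111 and 115 of the 118 among them. The 7 lost with TMM were EA00451, EA57729, EA78998, EA09267, EA09956, EA13427 and EA52455, and for the first 3, next highest in liver, the ratio went to between 1.48 and 1.83. It was 163 and 80 at folds of 3 and 10, 128 and 111 at minimums of 1 and 10 FPKM, 128 with a minimum of 20 counts alone, 107 with 1 FPKM added, 104 by the lower bound of the ratio and 171 against the 8 other organs used for the study's specificity index. The 20 most abundant members were kept in every alternative except the fold of 10, which kept 19.

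The share of intestine counts in intestine-high genes was 25.4% with TMM, 25.3% with DESeq2 factors, 25.8% without the 10 highest genes, 26.6% and 23.6% at folds of 3 and 10, 25.1% by the lower bound, 25.9% without kidney, 26.6% without gall bladder, 26.8% against the 8 organs and 27.3% without liver or without liver and tongue muscle, against 25.2%. The r with gall bladder, the closest organ in every setting, was 0.924 with no filter on low values. Under TMM and DESeq2 factors the ratio to the highest other organ crossed 1 for EA02881 (0.711 and 0.669), EA27319 (0.401 and 0.377), EA27026 (1.12 and 1.11), *HPGD-1* (0.751 and 0.707), *HACD2* (0.368 and 0.320), *MPST* (0.984 and 0.927), *DNPEP* (0.852 and 0.740), *RAB3A-2* (1.24 and 1.16) and *SMC4-2* (1.04 and 1.04). With totals without the 10 highest genes it did so for EA02881 (0.994), EA27319 (0.560), EA27026 (1.01), *HACD2* (0.668) and *RAB3A-2* (1.07). The cause was not tested. The difference of each list's median from that of all genes kept its sign throughout. Of all measured models, 904 were highest in intestine with TMM and 841 with DESeq2 factors, against 587. Among the 959 with a symbol these numbers were 39 and 32, against 22.

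No paired analysis was possible because each organ has 1 library. There were no replicates to leave out.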
